A study of Mus musculus with 6 samples.

Results

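The genes described here are 8 members of the interleukin-1 (IL-1) family and its receptors, of 24972 gene rows measured in heart muscle cells of the mouse. They are the ligands Il1a, Il1b and Il33, the antagonist Il1rn, the receptors Il1r1 and Il1rl1, the shared co-receptor Il1rap and the decoy receptor Il1r2. All 8 were present in the table. The members were chosen by family name, with the difference between the doxorubicin and vehicle libraries, library by library, already in view. That difference is therefore described for the members and not tested. Levels are the authors' deposited normalized read counts, from 6 libraries of cardiomyocyte RNA, 1 per mouse. Where 3 values of a group are given, they stand in the order of replicates 1, 2 and 3. All 6 mice carried MX1gfp, a reporter allele in which green fluorescent protein reports on the interferon-responsive Mx1 gene, so the controls carry it too. Of these, 3 mice received vehicle (phosphate-buffered saline) and 3 received 1 dose of doxorubicin at 25 mg per kg, both into the peritoneum in a volume of 100 microlitres. Doxorubicin is an anthracycline cancer drug that is toxic to the heart. Hearts were taken after 48 hours, and myocytes from digested ventricles were settled by gravity, which does not sort out other cells. Age and sex are not in the labels.

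IL-1α and IL-1β both act through IL-1R1, which signals only after it recruits the accessory protein IL-1RAP. Signalling then runs through MyD88, the IRAK kinases and TRAF6 to NF-κB and the stress kinases. IL-1β is made as an inactive precursor, mainly by myeloid cells, and is cut by caspase-1 in the inflammasome. IL-1α is active without that step and is held in many cells as an alarm signal. IL-33 is a nuclear alarm cytokine of fibroblasts, endothelium and mesothelium, and it acts through ST2, the product of Il1rl1, again with IL-1RAP. The pathway is restrained by the receptor antagonist IL-1Ra, made from Il1rn, and by IL-1R2, a decoy that binds IL-1 without signalling and that neutrophils carry. In the heart, IL-1 is known to depress contraction and IL-33 with ST2 is known for stretch responses of fibroblasts and myocytes.

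Depth and makeup differed between the groups. Estimated from the spacing of low values, the vehicle libraries held 7690000 to 11500000 reads and the doxorubicin libraries 3660000 to 6190000, so depth and treatment cannot be told apart. A single read was worth about 0.63 to 0.96 normalized counts under vehicle and 1.05 to 1.48 under doxorubicin. Markers of cardiomyocytes, 8 genes such as Myh6 and Actc1, summed to 597750 to 693793 under vehicle and to 519559, 177097 and 150174 in doxorubicin replicates 1, 2 and 3. This was the largest of the marker sums in every library, and it was much lower in doxorubicin replicates 2 and 3. Sums over different genes do not rank cell types by number. Doxorubicin replicate 1 stood nearest to the vehicle libraries by this sum. The fall was unequal between markers. In doxorubicin replicates 2 and 3 the log2 change from vehicle was -2.87 and -2.37 for Myh6 and -3.30 and -2.58 for Actc1. It was -0.76 and -1.16 for Tnnt2 and -0.50 and -1.44 for Pln. In bulk RNA, fewer cells of a type, less RNA per cell and changes of single genes cannot be told apart.

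The 8 genes followed 3 patterns across the doxorubicin libraries. Il1a, Il1b and Il1rn were abundant in doxorubicin replicate 3 and low elsewhere. Il33, Il1r1 and Il1rap were higher in replicates 2 and 3 to a like degree, and closer to the vehicle libraries in replicate 1. Il1r2 was highest in replicate 2, while Il1rl1, the IL-33 receptor, rested on about 5 to 12 reads in every library, with overlapping groups. The values of doxorubicin lay above all those of vehicle in 5 of the 8 genes (Il1b, Il33, Il1r1, Il1rap and Il1r2) and below them in 0. Over all 12477 genes tested, 19.2% were higher and 22.6% lower without overlap, and nothing is read from the members' count, since it comes from the contrast that was known. The limma fit across all genes called 0% higher and 0% lower at an adjusted p under 0.05, with 4485 genes at an unadjusted p under 0.05. Of the members, 6 reached the mean of 10 normalized counts needed to enter that fit, and Il1r2 and Il1rl1 did not. Il1a and Il1rn reached it through doxorubicin replicate 3 alone.

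**Figure D1:**
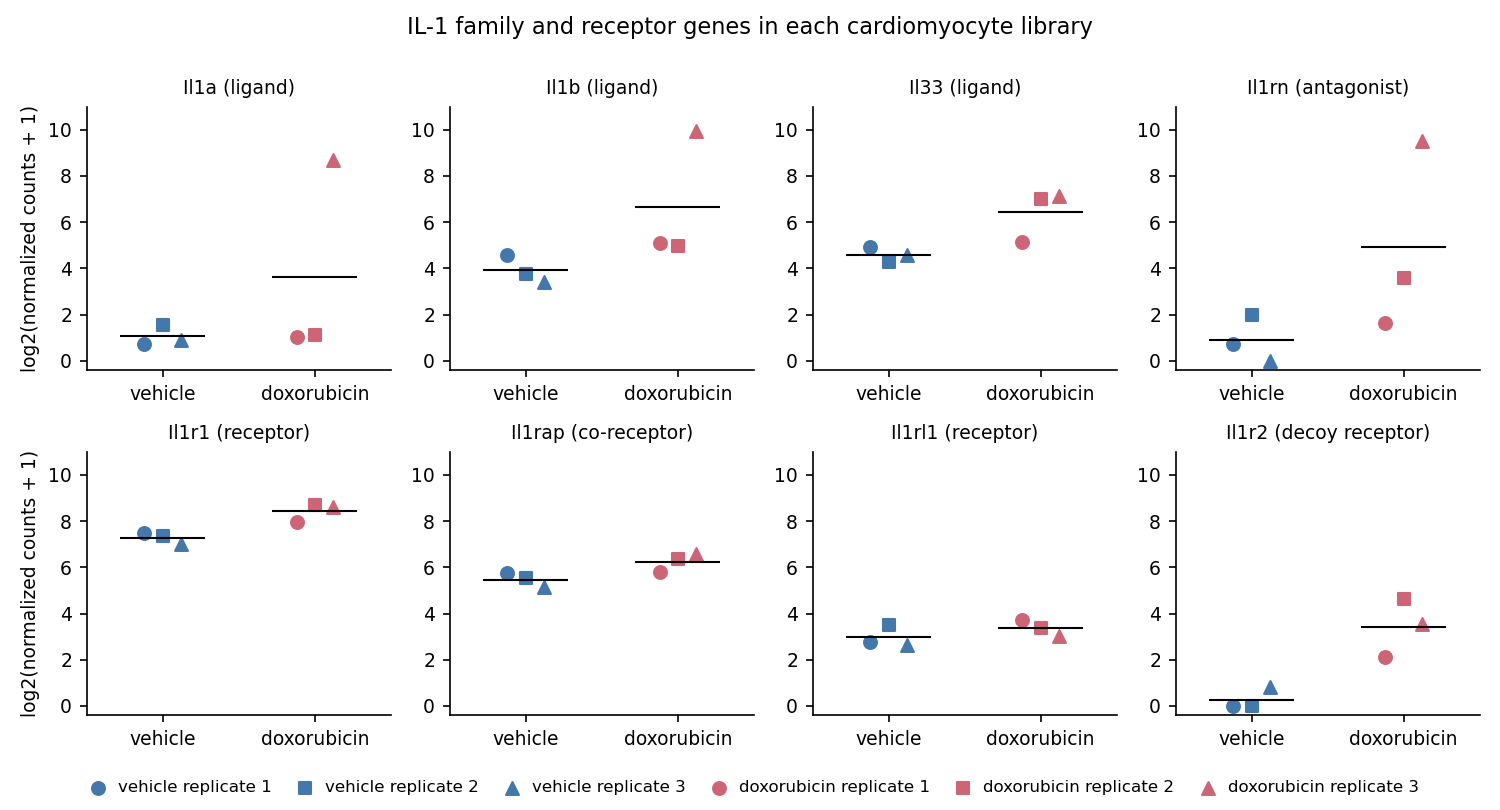
Each panel shows 1 gene, with log2(normalized counts + 1) on the vertical axis, the 3 vehicle libraries in blue and the 3 doxorubicin libraries in red, the symbol giving the replicate number and the line the group mean on that scale. Doxorubicin replicate 3 holds 409, 979 and 740.4 normalized counts of Il1a, Il1b and Il1rn, whereas Il1r1, Il1rap and Il33 are high in replicates 2 and 3 alike.

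Il1b, which encodes the secreted IL-1β, lies on chromosome 2 (129364569 to 129371164, minus strand, GRCm38.p6). Under vehicle it read 23.0, 12.5 and 9.70 normalized counts, and under doxorubicin 33.5, 30.1 and 979. The groups did not overlap, and doxorubicin replicate 3 stood 29.2-fold above the highest of the other 5 libraries. That library held 90.0% of all Il1b signal in the table. The group means were 15.1 ± 7.01 and 347.5 ± 547 (SD, n = 3 in each). The log2 difference, doxorubicin less vehicle and taken after adding 1 to each value, was 2.75 (SE 1.23), and it was 1.11 without doxorubicin replicate 3. In doxorubicin replicates 1 and 2 alone, Il1b was 2.22-fold and 2.00-fold the vehicle mean.

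Il1a, which encodes the alarm cytokine IL-1α, lies next to Il1b on the same strand (129299609 to 129310186), 54382 bases away. It read 0.645, 1.93 and 0.892 under vehicle, and 1.05, 1.20 and 409 under doxorubicin. The first 5 of these amount to about 1 or 2 reads each, against about 276 reads in doxorubicin replicate 3. That library held 98.6% of the Il1a signal. The groups overlapped, because doxorubicin replicates 1 and 2 lay within the vehicle range. The log2 difference of 2.55 (SE 1.97) thus describes 1 mouse, and without doxorubicin replicate 3 it was 0.02.

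Il33 lies on chromosome 19 (29925113 to 29960718, plus strand). Vehicle libraries held 29.6, 18.3 and 23.1 normalized counts, and doxorubicin libraries 34.5, 126 and 139.8. The groups did not overlap, though doxorubicin replicate 1 came close to vehicle replicate 1 and the other two lay far above. The means were 23.7 ± 5.67 and 100.2 ± 57.3 (SD, n = 3), a log2 difference of 1.83 (SE 0.52). Relative to the vehicle mean, Il33 stood at 1.46-fold, 5.33-fold and 5.90-fold in the 3 doxorubicin libraries. Unlike Il1a and Il1b, this ligand did not separate doxorubicin replicate 3 from replicate 2, and without replicate 3 its difference was still 1.47.

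The stretches just before the transcription starts of these genes are shown because the 3 ligands share a feature there. In each case the 120 bases before a start are given 5′ to 3′ on the gene's own strand, from RefSeq's promoter windows of GRCm38.p6, with matches to the searched motifs in capitals. The windows are chr2:129309973-129310092 (minus) for Il1a, chr2:129371140-129371259 (minus) for Il1b, chr19:29945670-29945789 (plus) for the downstream start of Il33 and chr2:24345171-24345290 (plus) for the middle of the listed Il1rn starts.
Il1a: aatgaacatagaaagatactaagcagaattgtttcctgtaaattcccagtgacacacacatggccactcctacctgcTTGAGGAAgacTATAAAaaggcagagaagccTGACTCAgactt
Il1b: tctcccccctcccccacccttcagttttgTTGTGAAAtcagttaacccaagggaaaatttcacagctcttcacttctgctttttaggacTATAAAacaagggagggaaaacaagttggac
Il33: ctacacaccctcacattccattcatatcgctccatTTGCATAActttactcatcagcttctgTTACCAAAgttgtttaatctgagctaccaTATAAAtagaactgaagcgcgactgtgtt
Il1rn: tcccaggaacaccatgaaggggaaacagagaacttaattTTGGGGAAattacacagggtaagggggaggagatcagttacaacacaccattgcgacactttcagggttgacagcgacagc

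A TATA box, searched as TATAAA, began 32 bases before the start in Il1a, 31 in Il1b and 29 in the downstream start of Il33. Among the 13 windows listed for the 8 genes, these 3 alone held TATAAA on the gene's strand between 40 and 21 bases before the start, as did 1.87% of all 32851 promoter windows. The placing of that interval was chosen after the matches were seen. The C/EBP-type letters TTNNGNAA, on either strand of the 250 bases before the start, were in 10 of the 13 windows and in 36.8% of all windows. In the Il33 stretch above, both such matches lie on the opposite strand, and 2 of the Il1rn windows overlap and share 1 match. The AP-1 letters TGANTCA were in 2 of the 13 (6.75% of all windows), in Il1a and in the upstream start of Il1rn. A κB consensus was in 1 of the 13, the downstream start of Il1r1 (7.25% of all), where it overlaps a C/EBP-type match. These are matches of letters in short windows, and no binding was measured.

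Il1rn, the gene of the receptor antagonist, lies on chromosome 2 (24336860 to 24351491, plus strand), 105 megabases from Il1a. It read 0.647, 2.91 and 0 under vehicle, and 2.11, 10.9 and 740.4 under doxorubicin. In reads, that is about 1, 3 and 0 against 2, 9 and 500. Doxorubicin replicate 3 stood 67.9-fold above the next library and held 97.8% of the signal, and replicate 1 lay within the vehicle range. The log2 difference of 4.02 (SE 1.85) depends on the pseudocount because the vehicle values are near 0. It was 1.71 without doxorubicin replicate 3.

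Per kilobase of transcript, the antagonist was below Il1b, and below the sum of Il1a and Il1b, in all 6 libraries. Against Il1a alone it was at 77.6%, 117% and 0% under vehicle and at 156%, 703% and 140.0% under doxorubicin, on 1 or 2 Il1a reads outside doxorubicin replicate 3. Il1rn amounted to 31.2% of the summed Il1a and Il1b level in doxorubicin replicate 3 and to 18.8% in replicate 2. In replicate 1 it was 3.28%, and in vehicle replicates 1 to 3 it was 1.47%, 11.2% and 0%. Outside doxorubicin replicate 3 these shares rest on 9 or fewer Il1rn reads. Il1a amounted to 28.7% of Il1b in doxorubicin replicate 3 and to 1.93% to 10.6% in the other libraries.

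Il1r1, the signalling receptor of IL-1α and IL-1β, lies on chromosome 1 (40222480 to 40316201, plus strand). Vehicle mice had 179, 162 and 129.8 normalized counts, and doxorubicin mice 251, 413 and 394. Each doxorubicin library stood above each vehicle library, and replicates 2 and 3 were nearly equal. The means were 157 ± 24.7 and 353 ± 88.5 (SD, n = 3), a log2 difference of 1.14 (SE 0.23). Leaving out any 1 library gave differences between 1.01 and 1.37. Of the 6 fitted members, Il1r1 had the smallest standard error, on about 149 to 341 reads a library.

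Il1rap, the co-receptor shared by IL-1 and IL-33, lies on chromosome 16 (26581509 to 26730128, plus strand). Under vehicle there were 52.6, 45.4 and 34.0 normalized counts, against 54.0, 80.4 and 93.3 under doxorubicin. The groups did not overlap, but doxorubicin replicate 1 cleared vehicle replicate 1 by little more than 1 read. The means were 44.0 ± 9.38 and 75.9 ± 20.0 (SD, n = 3), a log2 difference of 0.76 (SE 0.28). Per kilobase, Il1rap was 33.7% to 37.9% of Il1r1 under vehicle and 25.1% to 30.5% under doxorubicin. The accessory chain was thus the less abundant partner in all 6 libraries.

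Il1rl1, which encodes both membrane-bound ST2 and its soluble form, lies in the same receptor cluster (40404864 to 40465418, plus strand). It read 5.72, 10.4 and 5.21 under vehicle, and 12.3, 9.43 and 7.07 under doxorubicin. The groups overlapped, and no library held more than about 12 reads. The log2 difference was 0.41. A small difference is not detectable at this depth. The next gene, Il18r1, starts 133 bases downstream on the same strand.

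Il1r2, the decoy receptor, opens the cluster (40084692 to 40125230, plus strand), which also holds Il1rl2, Il18r1 and Il18rap within 467016 bases. It was listed at 0 in vehicle replicates 1 and 2 and at 0.771, about 1 read, in replicate 3. In doxorubicin replicates 1 to 3 it had 3.29, 23.9 and 10.8, or about 3, 20 and 7 reads. All 3 doxorubicin libraries stood above all vehicle libraries, with replicate 2 highest. No fold is given against vehicle values this low. Per kilobase, Il1r2 was 5.37%, 23.8% and 11.3% of Il1r1 in doxorubicin replicates 1 to 3, against 0%, 0% and 2.43% in vehicle replicates 1 to 3.

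Compared per kilobase of the longest annotated transcript, Il1r1 was the most abundant member in the vehicle libraries, at 26.9 ± 4.25 (SD, n = 3). Il1b (11.1 ± 5.17), Il1rap (9.73 ± 2.08) and Il33 (9.31 ± 2.23) followed and did not differ beyond their spread. Il1rl1 came next at 1.34 ± 0.538. Il1a, Il1rn and Il1r2 were lowest, at means of 0.585, 0.465 and 0.181, on 0 to 3 reads a library, and their order cannot be told from such values. In doxorubicin replicate 3 the order was another, with Il1b at 722, Il1rn at 290 and Il1a at 207, all above Il1r1 at 67.8. In doxorubicin replicates 1 and 2, Il1r1 was first at 43.2 and 70.9. Lengths were those of the longest transcript, and the isoforms used in these cells were not measured.

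**Figure D2:**
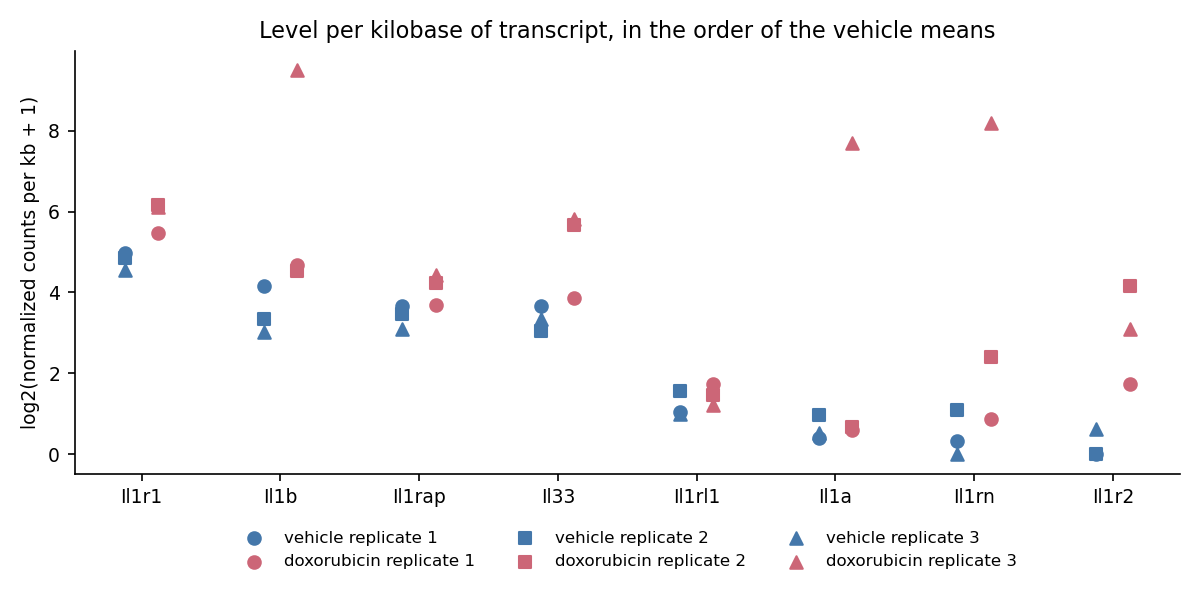
The vertical axis is log2(normalized counts per kilobase of transcript + 1), with genes on the horizontal axis in the order of their vehicle means, vehicle libraries in blue, doxorubicin libraries in red and symbols giving the replicate number. Il1r1 leads in the vehicle libraries at 26.9 on average, and Il1b, Il1rn and Il1a pass it in doxorubicin replicate 3 only.

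Summed markers of some other cell types, and not of all, were higher after doxorubicin. The 10 macrophage markers, led by Lyz2 and Csf1r, summed to 2515 to 2723 under vehicle and to 4122, 6630 and 15034 in doxorubicin replicates 1 to 3. Of these 10, 8 were higher without overlap and 0 lower, beside 19.2% and 22.6% of all genes, and none was at 0. Cx3cr1, a receptor of resident macrophages, went the other way, at 49.1 to 72.8 under vehicle and 53.6, 4.80 and 42.6 under doxorubicin (log2 difference -1.35). Like Il1a, Il1b and Il1rn, the macrophage sum was highest in replicate 3, at 5.72-fold the vehicle mean against 2.52-fold in replicate 2. The T cell and ILC2 sum and the endothelial sum were highest in that library too, at 4.11-fold and 1.67-fold. Not every macrophage marker was, since Mrc1 (427, 778 and 670) was highest in replicate 2. C1qa (562, 1122 and 1130) was nearly equal in replicates 2 and 3. Lyz2, which encodes lysozyme of macrophages and neutrophils, read 728 to 798 under vehicle and 6811 in doxorubicin replicate 3. In that same library Il1a, Il1b and Il1rn were 354-fold, 65.0-fold and 624-fold their vehicle means, the first and last on 0 to 3 vehicle reads. The part of macrophages in these values was not tested.

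The 10 neutrophil markers, led by S100a9 and S100a8, summed to 11.8 to 21.7 under vehicle and to 61.3, 644 and 477 in doxorubicin replicates 1 to 3. Of the 5 that were tested, 3 were higher without overlap and 0 lower, beside 19.2% and 22.6% of all genes. Ly6g, a defining marker, was listed at 0 in the vehicle libraries and doxorubicin replicate 1 and came to 1.20 and 1.48 in replicates 2 and 3. The sum, carried mostly by S100a9 and S100a8, ran in the same order as Il1r2, with replicate 2 above 3 above 1. Not every marker did, since Csf3r (10.2, 46.6 and 94.9) and Ly6g were highest in replicate 3 and Ltf (5.26, 3.60 and 1.48) in replicate 1. The part of neutrophils in the Il1r2 and Il1b values was not tested. The 6 monocyte markers, led by Vcan and Ccr2, summed to 191 to 232 against 229.5, 738 and 374. Vcan carried most of this, at 166 to 204 under vehicle and 163, 609 and 262 under doxorubicin, with overlap. Ccr2 was at 15.6 to 20.6 against 29.2, 22.8 and 21.3. Of the 4 monocyte markers tested, 3 were higher without overlap and 0 lower, beside 19.2% and 22.6% of all genes.

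Cells that make IL-33 in the heart were represented as well. The 8 fibroblast markers, led by Dcn and Col3a1, summed to 6236 to 8274 under vehicle and to 8639, 22816 and 16406 in doxorubicin replicates 1 to 3. Dcn, a matrix proteoglycan, carried most of this, at 3113, 18072 and 11326, whereas Col3a1 was at 739.8 and 1184 in replicates 2 and 3 against 1412 to 2268 under vehicle. The 6 mesothelial markers, led by Upk3b and Wt1, summed to 189 to 412 against 367, 840 and 703. The 8 endothelial markers, led by Cdh5 and Kdr, summed to 12613 to 16252 against 21015, 19757 and 24904. The groups overlapped for both of these genes, and Kdr was at 5139, 2159 and 3401 under doxorubicin against 3448 to 4340 under vehicle (log2 difference -0.26). Higher without overlap were 3 of 8 fibroblast, 1 of 6 mesothelial and 5 of 8 endothelial markers, with 0 lower, beside 19.2% and 22.6% of all genes. Fibroblast and mesothelial sums, like Il33 and Il1r1, were high in both replicates 2 and 3, the fibroblast sum mainly through Dcn. The part of these cells in Il33 and Il1r1 was not tested. The 8 mural markers (Rgs5 and Abcc9 leading) summed to 9861 to 14629 against 11321 to 13327. That sum joins opposite moves, with 3 differences above 0 and 5 below. Rgs5 was at 4333 to 7807 under vehicle and 5270, 9595 and 9346 under doxorubicin. Abcc9 was at 2848 to 3842 against 2955, 1237 and 1487.

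Mast cells carry ST2, and their 6 markers (Kit and Mcpt4 leading) summed to 88.8 to 113 under vehicle and 73.5 to 97.5 under doxorubicin. The 5 T cell and ILC2 markers present (Gata3 and Il7r leading) summed to 6.98 to 31.7 and 21.7 to 77.9. The 4 B cell markers (Cd79a and Cd79b leading) summed to 9.59 to 28.7 and 3.00 to 42.9, and the 4 adipocyte markers (Cidec and Adipoq leading) to 10.1 or less in every library.

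**Figure D3:**
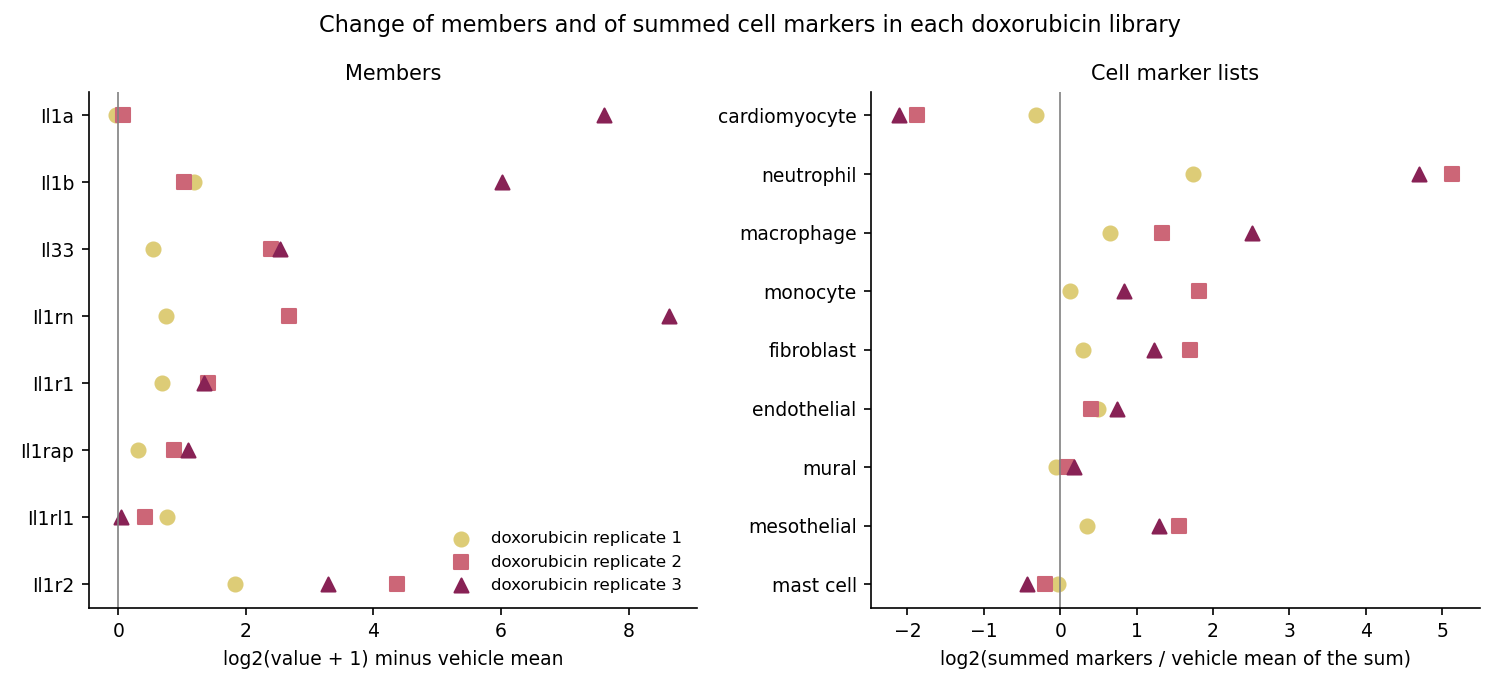
The left panel shows each member's log2(value + 1) minus its vehicle mean, and the right panel the log2 ratio of each summed marker list to its vehicle mean, with 1 symbol for each doxorubicin library (vehicle sums under 50 are left out, other than neutrophil). Macrophage markers are highest in replicate 3 at 5.72-fold and neutrophil markers in replicate 2 at 35.0-fold.

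Xist and the Y-linked Ddx3y put the mice in 2 classes that do not follow treatment. Xist read 1558 to 2093 in 1 vehicle library (replicate 3) and 2 doxorubicin libraries (replicates 1 and 3), and Ddx3y 659 to 958 in the other 3. Within the Y-linked class, with 2 vehicle libraries and 1 doxorubicin library, the log2 differences of Il1r1, Il33 and Il1rap were 1.28, 2.39 and 0.71. Within the Xist class, with 1 vehicle library and 2 doxorubicin libraries, they were 1.27, 1.55 and 1.04. The groups of these 3 genes did not overlap, so higher values after doxorubicin in both classes were bound to follow. Nothing more is read from this split. Il1a was 0.00 in the Y-linked class and 3.94 in the Xist class, which holds doxorubicin replicate 3. Il1b was 0.79 and 4.10, Il1rn 2.23 and 5.59, Il1r2 4.64 and 2.01, and Il1rl1 0.25 and 0.74.

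The genes whose log2 values ran most like those of each member over the 6 libraries were sought among 10019 genes with a mean of at least 50. With 2 groups of 3 libraries that share depth and cell makeup, many genes run alike, and Pearson r passed 0.95 in 64 of them for Il1a, 151 for Il1b, 211 for Il1rn, 518 for Il1r1, 409 for Il1rap and 634 for Il33. Among the leading genes for Il1b were Slc15a3, a lysosomal peptide transporter (r = 0.998), and Ptges, which encodes an inducible prostaglandin E synthase (0.993). Slc15a3 read 55.5, 42.9 and 33.9 under vehicle and 61.2, 66.5 and 474 under doxorubicin. For Il1a they were Wdsub1, Tbc1d13 and Dtx3l (0.991 to 0.994), and for Il1rn Ep400, Uap1l1 and Zbtb2 (0.9971 to 0.9996). Their steps in doxorubicin replicate 3 were small beside that of the member, Wdsub1 going from 131 to 139 in 5 libraries to 188.

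For Il1r1 the leading genes were Esam, an adhesion molecule of endothelium and platelets, the transcription factor gene Elf1 and the sphingomyelinase gene Smpd3 (0.998 to 0.999). Esam read 891, 838 and 677 under vehicle and 1227, 2050 and 1973 under doxorubicin, the same order of libraries as Il1r1. For Il1rap they were Nek6, Ctla2b and Pear1 (0.995 to 0.998), and for Il33 Daxx, Adap2 and Tbc1d17 (0.997 to 0.999). These likenesses describe 6 libraries and say nothing more.

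The rest of the IL-1 family was looked at through a list of 13 genes, all present. Of these, 5 were listed at 0 in every library, namely Il1f5, Il1f6 and Il1f8 (the IL-36 antagonist and 2 IL-36 ligands), Il1f10 and Il1rapl2. Another, Il1rapl1, was listed at 0 in all but 1. Il1f9, an IL-36 ligand, was listed at 0 in the vehicle libraries and read 2.11, 8.5 and 1.47 under doxorubicin. Among the 4 tested, limma called 0 higher and 0 lower, 2 had an unadjusted p under 0.05 (35.9% of all genes did), and the median log2 difference was 0.96 against 0.00 over all genes tested.

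Of the sister receptor genes, Il1rl2, Il18r1 and Il18rap lie in the cluster with Il1r1. Il18r1, the IL-18 receptor, read 8.53, 4.12 and 1.52 under vehicle and 10.4, 49.1 and 19.8 under doxorubicin, without overlap (log2 difference 2.20, SE 0.74, limma adjusted p 0.0906). Its partner Il18rap, not tested, had at most 0.887 in the vehicle libraries and 2.10, 12.1 and 8.71. Il1rl2, the IL-36 receptor, had 23.9, 7.76 and 13.4 against 14.5, 57.2 and 39.2, with overlap (1.18, limma adjusted p 0.185). The inhibitory receptor gene Sigirr had 56.5 to 63.6 against 88.8, 92.1 and 124 (0.74, SE 0.20, limma adjusted p 0.0859). The ligand Il18 was near the floor at 0 to 2.57 against 4.41 to 10.8, and Il18bp, its soluble inhibitor, had 87.4 ± 16.4 and 69.2 ± 16.0 (SD, n = 3). Doxorubicin replicate 2 was the highest library for Il1r2, Il1r1, Il1rl2, Il18r1 and Il18rap, and not for Il1rl1, the remaining receptor gene of the cluster.

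Of the genes that mature or release IL-1, 9 of 10 tested had a difference above 0, and none passed the test. Of the 14 listed, 10 were tested, of which limma called 0 higher and 0 lower. An unadjusted p under 0.05 was found for 4 of the 10, beside 35.9% of all genes, and 5 were higher and 1 lower without overlap, beside 19.2% and 22.6%. The median log2 difference was 0.75. Nlrp3, the inflammasome sensor, read 8.28, 1.92 and 5.24 under vehicle and 11.6, 15.6 and 88.8 under doxorubicin (2.27, SE 0.83, limma adjusted p 0.104). Casp4, the non-canonical inflammatory caspase, had 18.6 to 20.5 against 40.7, 72.2 and 82.6 (1.63, SE 0.31, limma adjusted p 0.0859). Gsdmd, the pore former through which IL-1β leaves cells, had 43.5 to 68.9 against 93.9, 128.5 and 216 (1.24, limma adjusted p 0.0859). Casp1, which cuts pro-IL-1β, had 16.7 to 29.9 against 28.2, 28.9 and 96.7, with overlap (0.97, limma adjusted p 0.201). Nlrp3 and Casp1 were thus highest in replicate 3, as Il1b was. Pycard was the gene lower without overlap, at 70.5 to 84.6 against 65.0, 21.7 and 50.0 (-0.85, SE 0.39, limma adjusted p 0.156). The neutrophil proteases Elane, Ctsg and Prtn3, which can also cut IL-1 family cytokines, were listed at 0 in all 6 libraries.

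The intracellular pathway was split in direction, with 10 differences above 0 and 14 below. All 24 signalling genes were tested, and limma called 0 higher and 0 lower. An unadjusted p under 0.05 was found for 9 of the 24, near the 35.9% of all genes, and 7 were higher and 3 lower without overlap, beside 19.2% and 22.6%. The median log2 difference was -0.06, and it was 0.24 with libraries scaled to equal totals, where the median of all genes was 0.30. Irak3, which encodes a kinase relative that restrains the pathway, read 66.1, 78.1 and 52.2 under vehicle and 79.0, 349.7 and 350.2 under doxorubicin (1.71, SE 0.55, limma adjusted p 0.0878). Irak2 had 78.9 to 109 against 132, 329 and 252 (1.30, SE 0.33, limma adjusted p 0.0859), and Irak4 had 25.0 to 40.8 against 56.7, 74.5 and 116 (1.21, SE 0.32, limma adjusted p 0.0859). Map2k6, a kinase above p38, had 28.8 to 52.0 against 48.2, 6.68 and 18.6, with overlap (-1.01, limma adjusted p 0.276). None of these 3 Irak genes had a doxorubicin value inside its vehicle range, though doxorubicin replicate 1 cleared it by about 1 read for Irak3.

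Genes known to respond to IL-1, many of which also respond to tumour necrosis factor and other signals, had a difference above 0 in 19 of the 20 tested of 25 listed. Limma called 0 higher and 0 lower. An unadjusted p under 0.05 was found for 12 of the 20, beside 35.9% of all genes, and 10 were higher and 0 lower without overlap, beside 19.2% and 22.6%. The median log2 difference was 1.45. The acute-phase gene Saa3 read 0, 15.2 and 0 under vehicle and 1.04, 17.9 and 4841 under doxorubicin, a step in 1 library like that of Il1a (4.50, SE 2.64, limma adjusted p 0.247). Ptges had 7.00 to 12.0 against 15.8, 22.9 and 299.8 (2.35, SE 1.00, limma adjusted p 0.138). Mmp3, a matrix protease gene, had 7.69 to 19.2 against 25.1, 402 and 219 (3.51, SE 0.94, limma adjusted p 0.0859). Lcn2, which encodes the iron-trapping lipocalin of neutrophils and stressed tissue, had 11.4 to 12.4 against 12.6, 311 and 191 (2.88, SE 1.04, limma adjusted p 0.103). Saa3 and Ptges thus followed the libraries of Il1a and Il1b, and Mmp3 and Lcn2 those of Il1r2. Il6 was at 4.13 or less in every library.

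**Figure D4:**
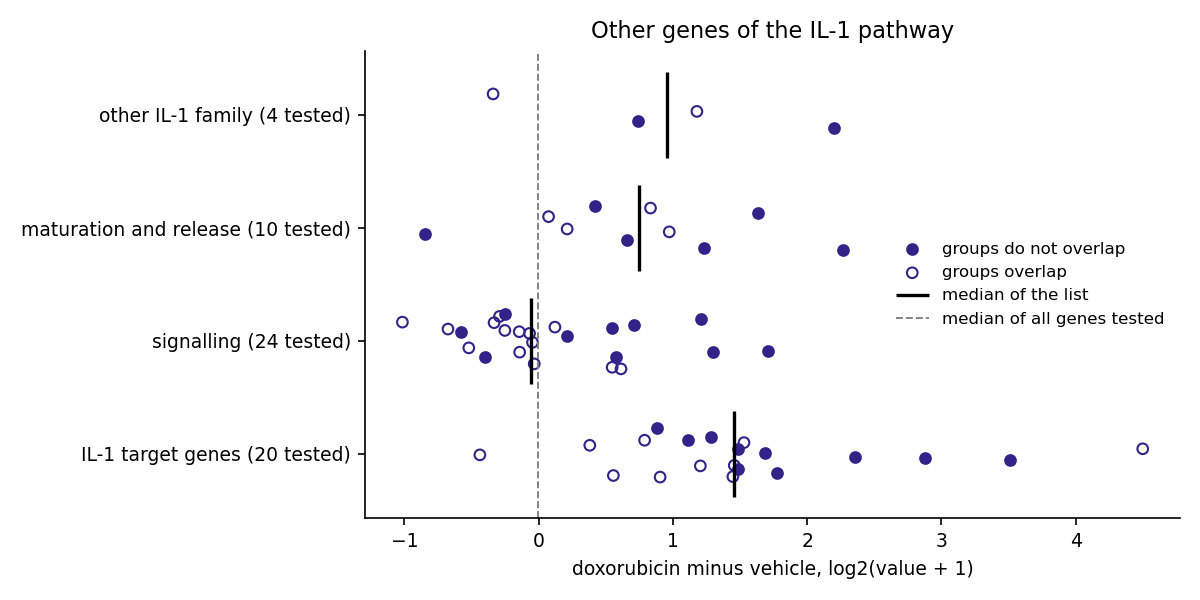
Each point is a tested gene of 1 of the 4 lists, placed by its doxorubicin minus vehicle difference on the log2(value + 1) scale, filled where the groups do not overlap; the black line is the list's median and the dashed line that of all genes. The medians are 0.96, 0.75, -0.06 and 1.45 from top to bottom.

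The calls turned on doxorubicin replicate 1, the library nearest to vehicle. Without it, limma called 19.4% of 12476 genes higher and 21.8% lower, and of these lists it called 17 of 20 target genes, 8 of 24 signalling genes, 6 of 10 maturation genes and 3 of 4 other family genes higher, with 0, 5, 1 and 0 lower. Irak3, Icam1 and Mmp3 were among the target and signalling genes called then, at log2 differences of 2.42, 2.39 and 4.68. Doxorubicin replicate 1 was singled out after its nearness to vehicle was seen, and the fit has 1 doxorubicin library fewer. These calls therefore describe how the fit depends on that library, and nothing more is read from them.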

How the data were processed

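RNA of cardiomyocytes from 6 mice (3 vehicle, 3 doxorubicin) was analysed, grouped by sample titles. Per the series' design text, reads were aligned in BaseSpace with STAR (2.6.1a in the submitters' processing notes, which also name Salmon) to mm10 with RefSeq genes. How genes were counted, normalized or filtered is not given in the sources used here. In each library's column the authors deposited a signal, a normalized read count for every gene, and these are not whole numbers. Between 80.3% and 92.4% of low values, up to 8.5 steps, lay within 0.1 of whole multiples of the most common low value, too few for count tests, so read numbers are approximate.

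Values were used as deposited. On log2(value + 1), 12477 genes with a mean of at least 10 were fitted with limma 3.58.1 in R 4.3.3 (trended prior, two-sided, Benjamini-Hochberg, threshold 0.05). The 2 groups of 3 could not give an exact permutation p below 0.1. Fold changes on this scale understate low genes. Per-kilobase levels used the longest GENCODE M21 transcript, and coordinates and promoter windows came from RefSeq for GRCm38.p6, the assembly mm10 denotes, and all 8 members matched. Strand use in counting is not stated. Of the overlapping genes in the table, Gm14023 (over Il1a) reached 11.6 and the others at most 0.875. Library pairs shared 3 to 17 equal values among the genes tested.

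The members and all gene lists were chosen with earlier results of these data known. Named were all members and other family genes, the 4 tested genes with the largest difference in each other pathway list, the 2 most abundant markers of each marker list and the 3 genes most like each member, of which 1 is not reported here. Tnnt2, Pln, Mrc1, C1qa, Ly6g, Csf3r, Ltf, Cx3cr1, Il6, Icam1, Elane, Ctsg and Prtn3 were named after their values were seen. Alternatives were other pseudocounts, filters, scalings and priors, a replicate block, an Xist and Y-linked class term, and leaving out each library. Plots used matplotlib 3.10.9 (Python 3.11.15).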

Additional observations from a re-analysis of the deposited data

How the results depend on the processing

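Every alternative with all 6 libraries called 0 genes in either direction, the smallest adjusted p ranging from 0.0641 to 0.115. Leaving out 1 library gave 0 to 2421 higher and 0 to 2715 lower, and only the fit without doxorubicin replicate 1 called any. In the lists these ranges were 0 to 3 higher (other family), 0 to 6 higher and 0 to 1 lower (maturation), 0 to 8 higher and 0 to 5 lower (signalling) and 0 to 17 higher (targets), and all of these calls again came without doxorubicin replicate 1. The median difference of the signalling genes, -0.06, changed sign with equal totals (0.24) and quantile normalization (0.0068), and ran from -0.10 to 0.019 when a library was left out, above 0 without vehicle replicate 3; the cause was not tested. The number of members higher without overlap was 4 or 5 with all libraries and 5 to 8 with 1 left out, reaching 8 without vehicle replicate 2, which holds the highest vehicle values of Il1a, Il1rn and Il1rl1. All 8 member differences stayed positive in every alternative. For the 5 members without overlap this was bound to follow when a library was left out or the classes were split. For Il1a the difference was as small as 0.0036, within the Y-linked class. Il1r2 moved by more than its replicate spread with a pseudocount of 8 (1.20) and within the Y-linked (4.64) and Xist (2.01) classes, and Il1a ranged from 0.02 to 3.85, Il1b from 1.11 to 3.60 and Il1rn from 1.71 to 5.66 when a library was left out. The labels state no pairing of the mice by replicate number. Same-numbered libraries deviated together with correlations of -0.13, 0.03 and -0.09, and differently numbered ones with -0.18 to 0.22. Deviations from means of 3 libraries cannot decide whether mice were paired. With a replicate block limma called 0 genes in either direction, with 3708 at an unadjusted p under 0.05 against 4485 in the main fit. Depth limits Il1a, Il1rn, Il1r2 and Il1rl1, which rest on 12 or fewer reads in most libraries.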
